A study of Mus musculus with 28 samples.

Results

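The D-type cyclins, the kinases they activate and the proteins that inhibit them were followed in regulatory T cells (Tregs) from mouse B16 melanomas and spleens. The members were the rows of the deposited expression table with 1 of 10 gene symbols: the cyclins Ccnd2, Ccnd3 and Ccne1, the kinases Cdk4 and Cdk6, and the inhibitors Cdkn2a, Cdkn2c, Cdkn2d, Cdkn1a and Cdkn1b. Of these 10, 9 were in the table of 13103 genes. All 9 passed the filter on low values, which left 12308 genes tested, and Cdkn1a is not analysed here. The rule names genes and uses no measured value, though the list was drawn up with earlier results of these data known.

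Tregs were sorted from Foxp3-GFP mice, in which green fluorescent protein marks cells that express Foxp3, the transcription factor that defines Tregs. B16 melanoma cells had been implanted in the skin 7 to 10 days earlier. GFP-positive CD4 T cells with high or low surface OX40, a costimulatory receptor encoded by Tnfrsf4, were taken from tumors and from spleens. The groups were tumor OX40plus (n = 4 mice), tumor OX40minus (n = 4), spleen OX40plus (n = 3) and spleen OX40minus (n = 3). All came from tumor-bearing mice of this reporter strain, so no group is free of a tumor, and the labels give neither age nor sex. Each sample is the mean of 2 libraries of the same mouse and gate, whose differences were about the size that sampling alone gives, so a pair counts once in n. Expression is given in CPM, estimated counts divided by the effective size of the library in M, as mean ± SD between mice. The effective size was read from the deposited values and differs somewhat from the total of estimated counts.

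In G1 phase, D-type cyclins bind CDK4 or CDK6, and the active kinase begins to phosphorylate the retinoblastoma protein (RB). Cyclin E with CDK2 completes this step, RB releases E2F transcription factors, and E2F drives genes of DNA replication. The INK4 inhibitors (p16 from Cdkn2a, p18 from Cdkn2c, p19 from Cdkn2d) bind CDK4 and CDK6 alone, while p27 from Cdkn1b binds cyclin-kinase complexes and inhibits mainly those with CDK2. In T cells, D cyclins rise after antigen receptor and interleukin-2 signals, and p27 is a known mark of resting cells.

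Sample totals were 22.4 M to 29.6 M estimated counts. By the effective library sizes, 3 counts corresponded to 0.104 to 0.13 CPM. The sorted gene followed the gates: Tnfrsf4 averaged 3357 CPM in tumor OX40plus, 1950 CPM in tumor OX40minus, 704 CPM in spleen OX40plus and 253 CPM in spleen OX40minus Tregs. The 8 Treg markers, Foxp3, Il2ra and Ctla4 among them, summed to 8630 to 10380 CPM in tumor samples. In spleen samples they summed to 3547 to 4902 CPM, and none was at 0. Ctla4, at 4180 CPM in tumor OX40plus and 841 CPM in spleen OX40plus Tregs, was the largest part in tumors. Foxp3 averaged 58.5 CPM in tumor OX40plus, 41.9 CPM in tumor OX40minus, 64.5 CPM in spleen OX40plus and 32.5 CPM in spleen OX40minus Tregs. Between tissues Foxp3 did not pass the test (limma adjusted p = 0.602 in OX40plus and 0.358 in OX40minus). Of the 8, 4 were higher and 2 (Ikzf4, Cd4) lower in tumor than in spleen OX40plus Tregs. RNA of other cell types moved with the gates as well. The summed level of 9 macrophage markers was 54.2 to 67.6 CPM in tumor OX40plus and 232 to 347 CPM in tumor OX40minus samples, and 81.5 to 197 CPM in spleen OX40plus and 733 to 920 CPM in spleen OX40minus samples. In tumors, 6 dendritic cell markers summed to 37.9 to 67.2 CPM in OX40plus and 134 to 193 CPM in OX40minus samples. Cd209a, at 30.6 CPM in tumor OX40plus and 97.0 CPM in tumor OX40minus, made up most of this sum in both. There, 8 NK and CD8 T cell markers summed to 47.6 to 74.9 CPM in OX40plus and 86.8 to 140 CPM in OX40minus samples. Of these 8, 7 were called lower in tumor OX40plus Tregs. The exception was Cd8b1, the largest of them, at 34.0 CPM in tumor OX40plus and 37.0 CPM in tumor OX40minus (limma adjusted p = 0.59). Stromal markers (6 genes) summed to 69.6 to 138 CPM in tumor OX40plus and 153 to 180 CPM in tumor OX40minus samples. Pecam1, at 70.7 CPM in tumor OX40plus and 137 CPM in tumor OX40minus, made up most of this sum in both. Only 2 of the 6, Pecam1 and Col1a2, were called lower in tumor OX40plus Tregs. Of 6 neutrophil markers, 3 were lower in tumor OX40plus Tregs, but Mmp9, at 26.6 CPM in tumor OX40plus and 213 CPM in tumor OX40minus, made up most of their sum in both. B cell markers (5 genes) summed to 0.32 to 4.21 CPM over the tumor samples and 312 to 466 CPM over the spleen samples, with Pax5 under 3 counts in every tumor sample. Melanoma markers (7 genes) summed to 72.4 to 192 CPM in tumor OX40plus, 98.6 to 142 CPM in tumor OX40minus and 12.6 to 22.4 CPM in spleen samples, so they overlapped between the tumor gates. Among the spleen OX40plus samples, mouse 3 had a macrophage sum of 197 CPM, against 83.4 and 81.5 CPM in the other 2 mice, and results that rest on it are given without it as well. Cyclins, CDKs and their inhibitors are expressed by all of these cells, and the part of this RNA in the values below was not tested. In bulk samples, a change in the share of cycling cells and a change of RNA per cell cannot be told apart.

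Promoter sequences were read for the members because MYC, which is known to activate Cdk4 and binds the E-box CACGTG, and E2F, forkhead and STAT5 factors are known regulators of this machinery. Windows of 300 bases (250 before and 50 after an annotated start, RefSeq, GRCm38.p6) were at hand for 8 of the 9 members, 11 windows in all, with none for Ccnd2. On both strands these windows were searched for CACGTG, for the E2F motifs TTTCCCGC, TTTGGCGC, TTTCGCGC and TTTGCCGC, for the forkhead motif TGTTTAC and for the STAT5 motif TTCNNNGAA. The 3 windows with an E-box belong to Cdk4, Cdk6 and Cdkn2c. They are shown here 5′ to 3′ in the direction of transcription, with the E-boxes in capitals: Cdk4 at chr10:127063285-127063584 (plus strand), Cdk6 at chr5:3343643-3343942 (plus strand) and the downstream start of Cdkn2c at chr4:109665323-109665622 (minus strand).
Cdk4: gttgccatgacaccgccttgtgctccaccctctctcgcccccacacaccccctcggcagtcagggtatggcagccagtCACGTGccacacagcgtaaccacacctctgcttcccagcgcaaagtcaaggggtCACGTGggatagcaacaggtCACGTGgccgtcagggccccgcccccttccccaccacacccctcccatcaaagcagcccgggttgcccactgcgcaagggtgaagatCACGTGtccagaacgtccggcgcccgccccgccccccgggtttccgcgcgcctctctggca
Cdk6: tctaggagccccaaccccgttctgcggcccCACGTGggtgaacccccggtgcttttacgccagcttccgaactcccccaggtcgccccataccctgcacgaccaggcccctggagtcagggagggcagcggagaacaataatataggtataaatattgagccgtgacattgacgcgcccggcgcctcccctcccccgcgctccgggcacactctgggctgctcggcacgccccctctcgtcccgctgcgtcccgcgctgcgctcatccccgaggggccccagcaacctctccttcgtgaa
Cdkn2c: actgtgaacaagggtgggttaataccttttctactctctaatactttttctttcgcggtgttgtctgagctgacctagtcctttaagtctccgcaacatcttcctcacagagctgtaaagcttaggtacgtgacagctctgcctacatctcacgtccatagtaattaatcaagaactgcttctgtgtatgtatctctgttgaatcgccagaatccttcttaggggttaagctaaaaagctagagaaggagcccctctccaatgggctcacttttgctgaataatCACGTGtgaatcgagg

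The Cdk4 window held 4 E-boxes, at -172, -118, -98 and -11 counted from the start base. Of 32851 mouse windows, 8 (0.0244%) held at least 4, and 7.15% held at least 1. The threshold of 4 was set by the Cdk4 window itself, so its share is a description and no test. The Cdk6 window held a single E-box at -220, and the Cdkn2c window a single one at 34 past its start. The upstream Cdkn2c window held none, nor did the windows of Ccne1 and Cdkn2a. The E2F motif TTTCCCGC was in the upstream Cdkn2a window at -99, against 2.26% of all windows with an E2F motif. The downstream Cdkn2a window held none of the motifs. The windows of Cdkn1b, Ccne1 and Cdkn2d, the upstream Cdkn2c window and the downstream Ccnd3 window also held none of them. The forkhead motif was in a Ccnd3 window at -243, against 3.65% of all windows, and no member's window held the STAT5 motif, which 8.3% of all windows did. These matches describe letters in a window and not bound sites, and a link between them and the levels below was not tested.

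Within tumors, the D cyclin kinases and cyclin E1 were higher in OX40plus Tregs, Cdkn2c was higher and Cdkn2d lower, Ccnd3 was lower, and Ccnd2 did not pass the test. Of the 9 members, 8 passed limma's test at a Benjamini-Hochberg adjusted p under 0.05, 5 of them higher (Cdk4, Cdk6, Ccne1, Cdkn2c, Cdkn2a) and 3 lower (Ccnd3, Cdkn2d, Cdkn1b) in OX40plus Tregs. Over all genes tested, 18.8% were called higher and 20.2% lower. The median log2 fold change was 0.63 over the 9 members and -0.07 over all genes tested. In 6 of the 9 members the OX40plus and OX40minus samples did not overlap, as in 33.4% of all genes tested.

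**Figure D1:**
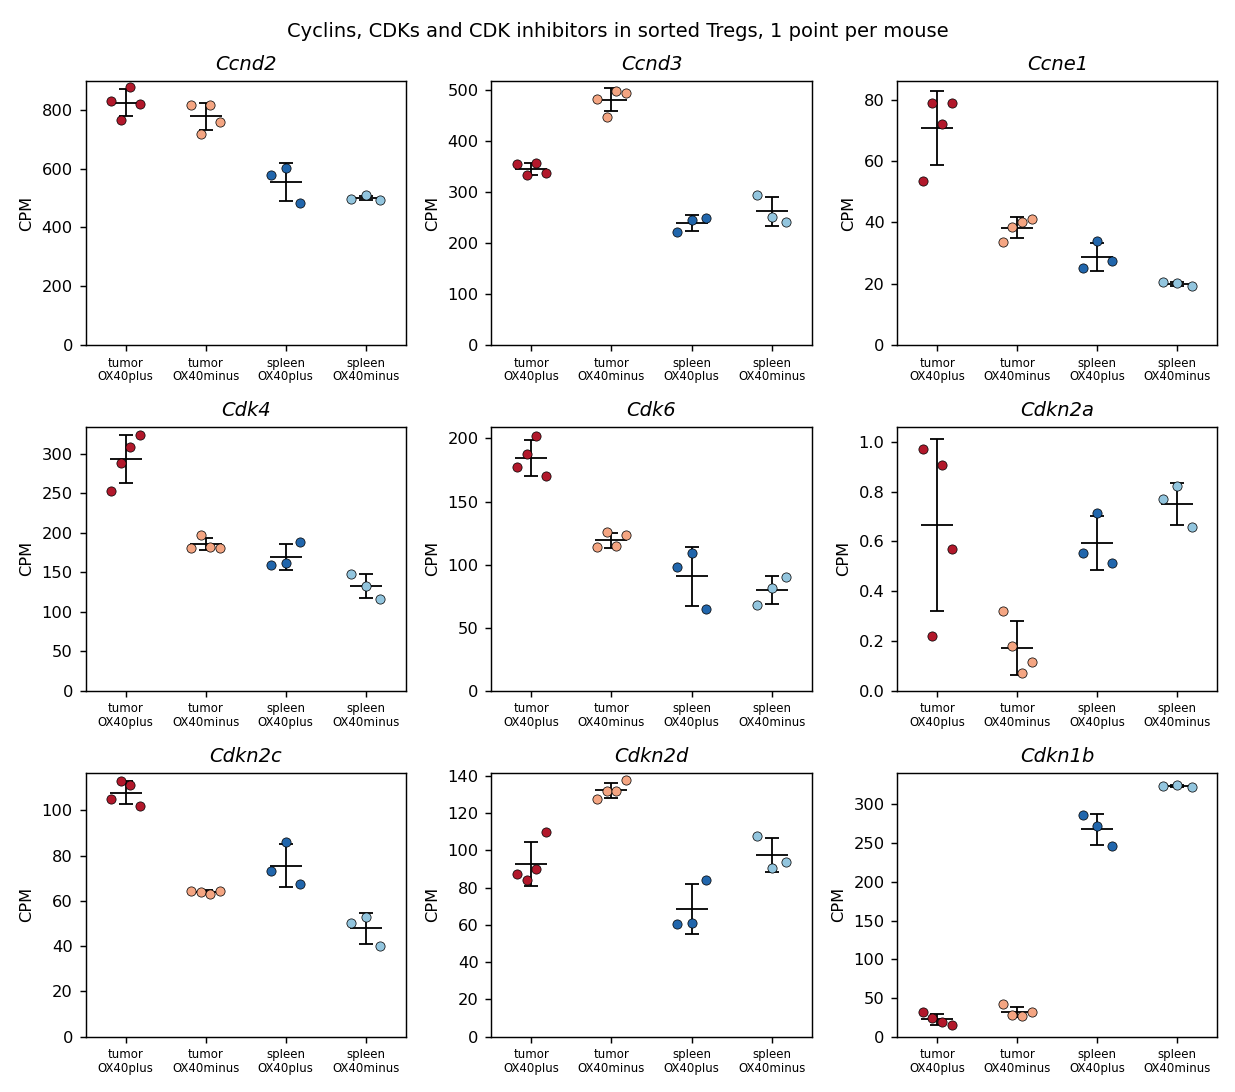
Expression of the 9 members in CPM (linear axis from 0), 1 point per mouse, with the mean and SD of each group. Cdkn1b is between 15.4 and 41.5 CPM in all tumor samples and between 247 and 326 CPM in all spleen samples, while the kinases and Ccne1 are highest in tumor OX40plus Tregs.

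Cdk4, the main kinase partner of D cyclins in many cells, was at 253, 288, 308 and 324 CPM in the 4 tumor OX40plus samples and at 181, 197, 182 and 181 CPM in the tumor OX40minus samples. Every OX40plus sample lay above every OX40minus sample. The log2 fold change was 0.66 ± 0.09 (SE, limma adjusted p = 5.38e-05). Cdk6, its close relative, which is prominent in lymphoid cells, was at 178, 188, 202 and 170 CPM in tumor OX40plus and at 114, 126, 115 and 123 CPM in tumor OX40minus samples. These groups did not overlap either, and the log2 fold change was 0.63 ± 0.13 (SE, limma adjusted p = 0.00167). The kinases stood in a like proportion in both gates: the ratio of Cdk6 to Cdk4 in CPM was 0.634 ± 0.0752 in tumor OX40plus and 0.645 ± 0.0249 in tumor OX40minus samples (SD, n = 4 each). Of the exon bases of Cdk4, 641 (19.7%) also lie in exons of Tspan31 on the opposite strand, and whether the counting used strand is not given in the sources used here. Tspan31 itself averaged 67.1 CPM in tumor OX40plus and 73.6 CPM in tumor OX40minus Tregs, a log2 difference of -0.13 that did not pass the test (limma adjusted p = 0.379).

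Ccne1, the cyclin that activates CDK2 at the end of G1, had the largest log2 fold change among the members above 1 CPM in this comparison. It stood at 53.3, 78.8, 72.2 and 79.0 CPM in tumor OX40plus samples and at 33.6, 38.4, 40.0 and 41.2 CPM in tumor OX40minus samples. The lowest OX40plus sample, mouse 1, still lay above the highest OX40minus sample. The log2 fold change was 0.87 ± 0.14 (SE, limma adjusted p = 0.000116).

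The D cyclins themselves went apart. Ccnd2, which together with Ccnd3 is the main D cyclin of lymphocytes, was at 831, 766, 878 and 820 CPM in tumor OX40plus and at 816, 718, 815 and 760 CPM in tumor OX40minus samples. Its groups overlapped, with a log2 difference of 0.08 ± 0.08 (SE, limma adjusted p = 0.444). Ccnd3 was at 355, 334, 358 and 337 CPM in tumor OX40plus samples and at 483, 448, 498 and 495 CPM in tumor OX40minus samples, with a wide gap between the groups. Its log2 fold change was -0.48 ± 0.08 (SE, limma adjusted p = 0.00015). Within each sample, Ccnd2 stood at 2.29 to 2.45 times Ccnd3 in CPM in tumor OX40plus Tregs and at 1.53 to 1.69 times in tumor OX40minus Tregs. Because scaling cancels within a sample, this ratio does not depend on how libraries were normalized. Bysl shares 361 bases (4.1%) of the Ccnd3 exons on the opposite strand and was higher in tumor OX40plus Tregs, by 0.70 ± 0.13 on the log2 scale (SE, limma adjusted p = 0.000592), the opposite direction to Ccnd3.

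The INK4 inhibitors moved in opposite directions. Cdkn2c (p18) was at 105, 113, 111 and 102 CPM in tumor OX40plus samples and at 64.4, 64.0, 63.0 and 64.5 CPM in tumor OX40minus samples, whose spread was under 2 CPM. Its log2 fold change was 0.75 ± 0.10 (SE, limma adjusted p = 2.6e-05). Cdkn2d (p19) was at 87.1, 83.9, 90.0 and 110 CPM in tumor OX40plus samples and at 128, 132, 132 and 138 CPM in tumor OX40minus samples. Its groups did not overlap, and the log2 fold change was -0.52 ± 0.11 (SE, limma adjusted p = 0.0018). The ratio of Cdkn2c to Cdkn2d in CPM was 1.18 ± 0.177 in tumor OX40plus and 0.484 ± 0.0153 in tumor OX40minus samples (SD, n = 4 each).

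Cdkn2a, which encodes p16 and, from another reading frame, ARF, was under 1 CPM in every sample of the study. The tumor OX40plus samples held 28, 6, 21 and 15 estimated counts and the tumor OX40minus samples 9, 5, 2 and 3, so that 1 OX40plus sample fell within the OX40minus range. Within every mouse, the OX40plus sample held more, though in mouse 2 only 6 counts against 5. The pooled counts, 70 in OX40plus and 19 in OX40minus, gave a CPM ratio of 3.86 with an exact 95% interval of 2.3 to 6.78 that covers counting error only. Its fitted log2 fold change, 1.86 ± 0.57 (SE, limma adjusted p = 0.0175), depends on the 0.5 added to each count. The call was lost when only the tumor groups were fitted (limma adjusted p = 0.0678), without tumor OX40plus mouse 3 (0.0515) and without tumor OX40minus mouse 4 (0.0503). The 2 libraries of a sample differed by up to 2.79 on the log2 scale for Cdkn2a, against at most 0.19 for the other 8 members.

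Cdkn1b (p27) was at 32.1, 23.5, 19.4 and 15.4 CPM in tumor OX40plus samples and at 41.5, 28.2, 27.1 and 31.7 CPM in tumor OX40minus samples, so that the groups overlapped. Within every mouse, the OX40plus sample lay below the OX40minus sample. The log2 fold change was -0.54 ± 0.18 (SE, limma adjusted p = 0.0246). This call did not hold in every fit: it was lost with only the tumor groups (limma adjusted p = 0.092), without tumor OX40plus mouse 3 (0.0682) or mouse 4 (0.0802), and without tumor OX40minus mouse 1 (0.0864), with log2 fold changes down to -0.37.

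In spleens, Cdkn2c and Cdkn2d differed between the gates in the same directions as in tumors, and the other members changed less or did not pass the test. Of the 9 members, 2 were called between spleen OX40plus and spleen OX40minus Tregs, Cdkn2c higher and Cdkn2d lower. All genes were called higher in 4.48% and lower in 3.65% of cases. Cdkn2c was at 73.1, 86.1 and 67.5 CPM in spleen OX40plus and at 50.4, 53.02 and 40.1 CPM in spleen OX40minus samples, without overlap and with a log2 fold change of 0.66 ± 0.12 (SE, limma adjusted p = 0.00154). Cdkn2d was at 60.5, 61.0 and 84.2 CPM in spleen OX40plus and at 108, 90.4 and 94.0 CPM in spleen OX40minus samples. Its groups did not overlap, the log2 fold change was -0.52 ± 0.13 (SE, limma adjusted p = 0.0195), and the call was lost without spleen OX40plus mouse 1 (limma adjusted p = 0.112) or mouse 2 (0.0954) and without spleen OX40minus mouse 1 (0.0898). The ratio of Cdkn2c to Cdkn2d was 1.14 ± 0.311 in spleen OX40plus and 0.494 ± 0.0831 in spleen OX40minus samples (SD, n = 3 each), close to the values of the same gates in tumors.

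Ccne1 and Cdk4 just missed the threshold in spleens. Ccne1 was at 24.9, 33.8 and 27.3 CPM in spleen OX40plus and at 20.4, 20.2 and 19.1 CPM in spleen OX40minus samples, with no overlap and a log2 difference of 0.51 ± 0.16 (SE, limma adjusted p = 0.0585). Cdk4 was at 159, 162 and 189 CPM in spleen OX40plus and at 148, 133 and 117 CPM in spleen OX40minus samples, with a log2 difference of 0.36 ± 0.11 (SE, limma adjusted p = 0.0546). Both became calls when libraries were scaled by size alone (limma adjusted p = 0.0402 for Ccne1 and 0.0165 for Cdk4) and when tumor OX40plus mouse 1 (0.02 for Ccne1, 0.0351 for Cdk4) or mouse 4 (0.049 and 0.0371) was left out. Leaving out spleen OX40minus mouse 1 also made Cdk4 a call (0.0325). The remaining members did not pass: the log2 differences were 0.16 ± 0.16 for Cdk6, 0.14 ± 0.09 for Ccnd2, -0.13 ± 0.09 for Ccnd3, -0.28 ± 0.21 for Cdkn1b and -0.35 ± 0.66 for Cdkn2a (SE), with limma adjusted p between 0.541 and 0.923. Cdk6 was at 98.5, 109 and 64.6 CPM in spleen OX40plus and at 68.1, 81.1 and 90.3 CPM in spleen OX40minus samples, with the lowest value of all 14 samples in spleen OX40plus mouse 3, the sample with the high macrophage sum. That mouse also had the highest Cdkn2d and Cdk4 of its group. Without it, the log2 difference between the spleen gates was 0.39 for Cdk6 (limma adjusted p = 0.07), 0.28 for Cdk4 (0.211), -0.68 for Cdkn2d (0.00197) and 0.74 for Cdkn2c (0.00144), and the same number of members, 2, was called. Cdkn1b was at 286, 272 and 247 CPM in spleen OX40plus and at 324, 326 and 322 CPM in spleen OX40minus samples, without overlap.

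**Figure D2:**
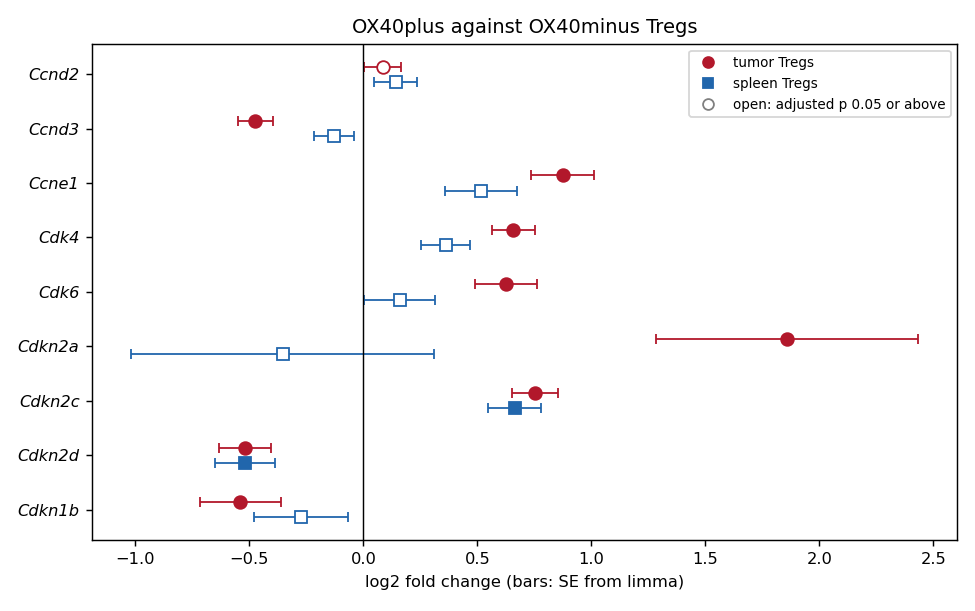
Log2 fold change of each member between OX40plus and OX40minus Tregs, in tumors (circles) and spleens (squares), with the SE from limma. Filled symbols are called at an adjusted p under 0.05, 8 of 9 in tumors and 2 of 9 in spleens, and the Cdkn2c and Cdkn2d differences lie close together in both tissues.

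A call in tumors and none in spleens does not show that the tissues differ, and the difference between the OX40 effects was tested directly. None of the 9 members was called for it in limma's fit, against 11.1% of all genes tested, and 3 members had an unadjusted p under 0.05. These were Cdkn2a at 2.21 ± 0.88 (SE, limma adjusted p = 0.121), Ccnd3 at -0.35 ± 0.12 (0.0698) and Cdk6 at 0.47 ± 0.21 (0.165), each a tumor difference minus a spleen difference on the log2 scale. Under other settings 2 to 4 members had an unadjusted p under 0.05. Ccnd3 was called with libraries scaled by size alone (limma adjusted p = 0.0183) and without spleen OX40minus mouse 1 (0.0286), and Cdkn2a without tumor OX40plus mouse 2 (0.0471). For Cdkn2d the difference was 0.00 ± 0.17 and for Cdkn2c 0.09 ± 0.15 on the log2 scale (SE).

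Between tissues, the cyclins, the kinases, Cdkn2c and Cdkn2d were higher in tumor than in spleen Tregs of the same gate, and Cdkn1b was lower by about 10-fold or more. In OX40plus Tregs, 8 of the 9 members were called between tumor and spleen, 7 higher in tumor and 1, Cdkn1b, lower, against 30.7% of all genes called higher and 34.4% called lower. In OX40minus Tregs all 9 were called, 7 higher in tumor and 2 lower (Cdkn1b and Cdkn2a), against 30.2% and 29.5% of all genes. With so many genes called in each direction, a call here is common. Both comparisons share samples with the OX40 comparisons, so their values are given side by side and were not correlated. The median log2 fold change of the members was 0.53 in OX40plus and 0.49 in OX40minus Tregs, against -0.12 and -0.02 over all genes. Scaling libraries by size alone moved the all-gene median of the OX40plus comparison to -0.22 and left every called member on its side. Without spleen OX40plus mouse 3, 8 members were again called in OX40plus Tregs, with log2 fold changes of 0.83 for Cdk6 and 0.60 for Cdkn2d.

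Cdkn1b averaged 22.6 ± 7.15 CPM in tumor OX40plus and 268 ± 19.96 CPM in spleen OX40plus Tregs, so the spleen level was 11.9 times the tumor level. The labels do not say whether tumor and spleen libraries were processed together, so tissue and processing cannot be told apart in these comparisons. In OX40minus Tregs it averaged 32.1 ± 6.55 CPM in tumor and 324 ± 1.79 CPM in spleen, a ratio of 10.1. The log2 fold changes were -3.62 ± 0.19 (SE, limma adjusted p = 1.61e-10) and -3.35 ± 0.19 (SE, limma adjusted p = 5.4e-10), and over all alternatives they stayed between -3.80 and -3.27. The highest tumor sample, at 41.5 CPM, was far below the lowest spleen sample, at 247 CPM. Per kilobase of merged exons, Cdkn1b was the most abundant of the 9 members in spleen OX40minus Tregs at 71.2 CPM per kb. In tumor OX40plus Tregs it was the second lowest at 4.96 CPM per kb, above Cdkn2a alone.

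Other genes outside the cell cycle followed Cdkn1b over the 14 samples. The highest Pearson correlations of log2 CPM with Cdkn1b were those of Tpcn1 (0.994), a channel of endosomes and lysosomes, Eif4ebp2 (0.994), a repressor of cap-dependent translation, and Chd3 (0.994), a chromatin remodeller. Foxo3 and Sesn3, named after their values were seen, showed a drop of like size. Foxo3, a forkhead factor known to activate Cdkn1b, averaged 10.8 CPM in tumor OX40plus and 121 CPM in spleen OX40plus Tregs, a log2 fold change of -3.49. Sesn3, a stress-response gene known as a FOXO target, averaged 20.1 CPM in tumor OX40plus and 212 CPM in spleen OX40plus Tregs, a log2 fold change of -3.42. Other genes of the FOXO, KLF and quiescence list below ranged from -3.03 (Klf2) to 2.38 (Klf6) in the same comparison. Foxo1, at 267 CPM in tumor and 355 CPM in spleen OX40plus Tregs, changed by -0.42. A link of these genes to Cdkn1b was not tested. The 14 points share 4 group means, and the correlations describe these samples only.

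**Figure D3:**
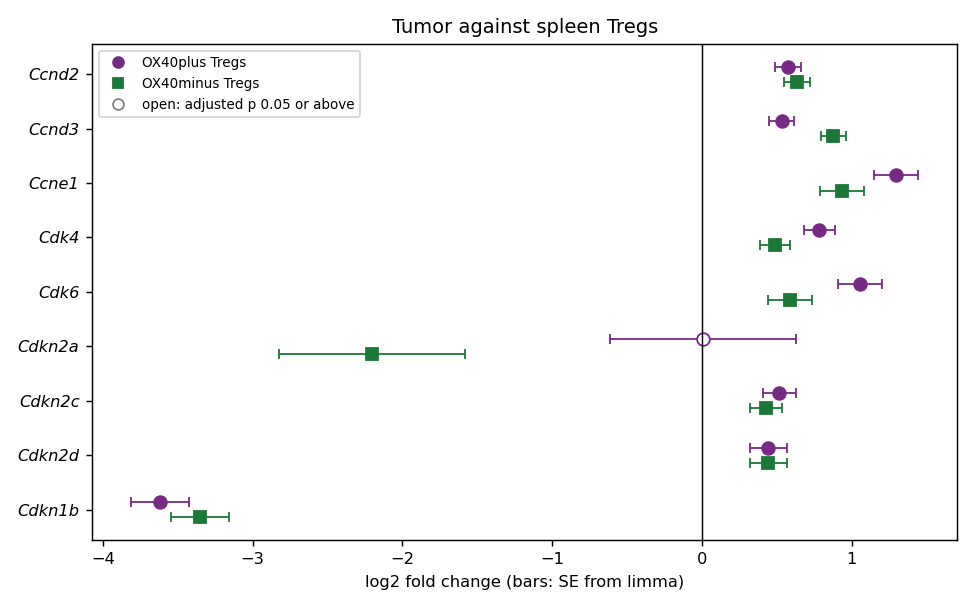
Log2 fold change of each member between tumor and spleen Tregs, for OX40plus (circles) and OX40minus (squares) cells, with the SE from limma. Cdkn1b lies at -3.62 and -3.35, and the cyclins, the kinases, Cdkn2c and Cdkn2d lie between 0.43 and 1.30.

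The kinases and cyclins were higher in tumors in both gates. Ccne1 averaged 70.8 ± 12.1 CPM in tumor OX40plus and 28.7 ± 4.601 CPM in spleen OX40plus Tregs, a log2 fold change of 1.30 ± 0.15 (SE, limma adjusted p = 1.09e-06). Its level in tumor OX40minus Tregs was 38.3 ± 3.33 CPM, against 19.9 ± 0.695 CPM in spleen OX40minus Tregs, a log2 fold change of 0.94 ± 0.15. Cdk6 averaged 184 ± 13.96 CPM in tumor OX40plus and 90.8 ± 23.3 CPM in spleen OX40plus Tregs, 1.05 ± 0.15 on the log2 scale (SE, limma adjusted p = 8.98e-06). In OX40minus Tregs it averaged 119 ± 5.98 CPM in tumor and 79.9 ± 11.2 CPM in spleen, a log2 fold change of 0.59 ± 0.15. Cdk4 averaged 293 ± 30.4 CPM in tumor OX40plus and 170 ± 16.5 CPM in spleen OX40plus Tregs, with a log2 fold change of 0.79 ± 0.10. In OX40minus Tregs, Cdk4 averaged 185 ± 7.72 CPM in tumor and 133 ± 15.7 CPM in spleen, a log2 fold change of 0.49 ± 0.10. Tspan31, which overlaps Cdk4, was also higher in tumor, by 1.04 in OX40plus and 1.34 in OX40minus Tregs on the log2 scale.

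Ccnd2 and Ccnd3 were both higher in tumors, with Ccnd3 ahead in the OX40minus gate. Ccnd2 averaged 823 ± 46.0 CPM in tumor OX40plus and 554 ± 63.7 CPM in spleen OX40plus Tregs, a log2 fold change of 0.58 ± 0.09. In OX40minus Tregs Ccnd2 averaged 777 ± 47.2 CPM in tumor and 500 ± 8.10 CPM in spleen, a log2 fold change of 0.63 ± 0.09. Ccnd3 averaged 346 ± 12.1 CPM in tumor OX40plus and 239 ± 15.2 CPM in spleen OX40plus Tregs, a log2 fold change of 0.53 ± 0.08. It averaged 481 ± 22.8 CPM in tumor OX40minus and 262 ± 28.2 CPM in spleen OX40minus Tregs, a log2 fold change of 0.88 ± 0.08. Fos, Map2k1 and Il2rg followed Ccnd3 most closely over the 14 samples, with Pearson correlations of 0.979, 0.981 and 0.979.

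The INK4 inhibitors Cdkn2c and Cdkn2d were higher in tumors by similar amounts in both gates. The log2 fold changes of Cdkn2c were 0.52 ± 0.11 in OX40plus and 0.43 ± 0.11 in OX40minus Tregs, and those of Cdkn2d were 0.44 ± 0.12 in each gate (SE). In OX40plus Tregs the Cdkn2d samples overlapped, at 83.9 to 110 CPM in tumor and 60.5 to 84.2 CPM in spleen. This overlap rests on spleen OX40plus mouse 3, at 84.2 CPM, as mice 1 and 2 were at 60.5 and 61.0 CPM. Cdkn2a did not pass the test in OX40plus Tregs, at 0.667 ± 0.346 CPM in tumor and 0.594 ± 0.107 CPM in spleen, with a CPM ratio of 1.12 and an exact 95% counting interval of 0.759 to 1.68. In OX40minus Tregs it was lower in tumor, with 19 counts over 4 samples in tumor and 56 counts over 3 samples in spleen, a CPM ratio of 0.229 with an exact 95% counting interval of 0.128 to 0.391 (limma adjusted p = 0.00601).

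The order of the group means was the same for Ccne1, Cdk4, Cdk6 and Ccnd2: tumor OX40plus, tumor OX40minus, spleen OX40plus, spleen OX40minus. The middle pair was compared as well, where 7 of the 9 members were called between tumor OX40minus and spleen OX40plus Tregs, 5 higher and 2 lower, against 29.1% of all genes higher and 29.3% lower. Cdk4 overlapped between these groups, with a log2 difference of 0.13 ± 0.10 (SE, limma adjusted p = 0.295). Cdkn2c missed the adjusted threshold at -0.23 ± 0.11 (SE, limma adjusted p = 0.0742), but its samples did not overlap, at 63.0 to 64.5 CPM in tumor OX40minus and 67.5 to 86.1 CPM in spleen OX40plus. Relative log expression factors (0.045), scaling by library size alone (0.0217) and leaving out spleen OX40plus mouse 3 (0.0339) or spleen OX40minus mouse 3 (0.0461) made Cdkn2c a call. Ccne1 was higher in tumor OX40minus by 0.42 ± 0.15 on the log2 scale (limma adjusted p = 0.0219), a call lost with libraries scaled by size alone (0.0547), without tumor OX40minus mouse 4 (0.0537), without spleen OX40plus mouse 1 (0.115) and without spleen OX40plus mouse 3 (0.0624). Cdk6 was higher by 0.43 ± 0.15 (limma adjusted p = 0.0188), a call lost with libraries scaled by size alone (0.065) and without spleen OX40plus mouse 3 (0.142), where the log2 fold change was 0.20. Cdkn2a was lower there by the fit (limma adjusted p = 0.0177), a call lost without spleen OX40plus mouse 2 (0.063). Cdkn2d averaged 132 ± 4.09 CPM in tumor OX40minus and 68.6 ± 13.5 CPM in spleen OX40plus Tregs, a log2 fold change of 0.96 ± 0.12 (SE, limma adjusted p = 5.11e-06).

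Ratios of members within a sample set these levels against each other without any scaling between libraries. Ccnd2 stood at 2.38 ± 0.0743 times Ccnd3 in tumor OX40plus and 1.61 ± 0.064 in tumor OX40minus samples. In spleens this ratio was 2.33 ± 0.354 in OX40plus and 1.92 ± 0.201 in OX40minus samples. The mean ratio was higher in the OX40plus gate of each tissue, with overlap in spleens. That overlap rests on spleen OX40plus mouse 3, at 1.93, against 2.60 and 2.45 in mice 1 and 2. Spleen OX40minus samples were at 1.69 to 2.05. The ratio of Ccne1 to Cdkn1b, chosen after the values were seen, was 3.47 ± 1.43 in tumor OX40plus, 1.24 ± 0.294 in tumor OX40minus, 0.108 ± 0.0188 in spleen OX40plus and 0.0615 ± 0.00187 in spleen OX40minus samples. No tumor sample was below 0.81 and no spleen sample above 0.124 for this ratio. The ratio of Cdk4 to its inhibitor Cdkn2c, also chosen after the values were seen, varied little by comparison, with group means of 2.73, 2.90, 2.28 and 2.79 in the same order. These are descriptions with no test.

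**Figure D4:**
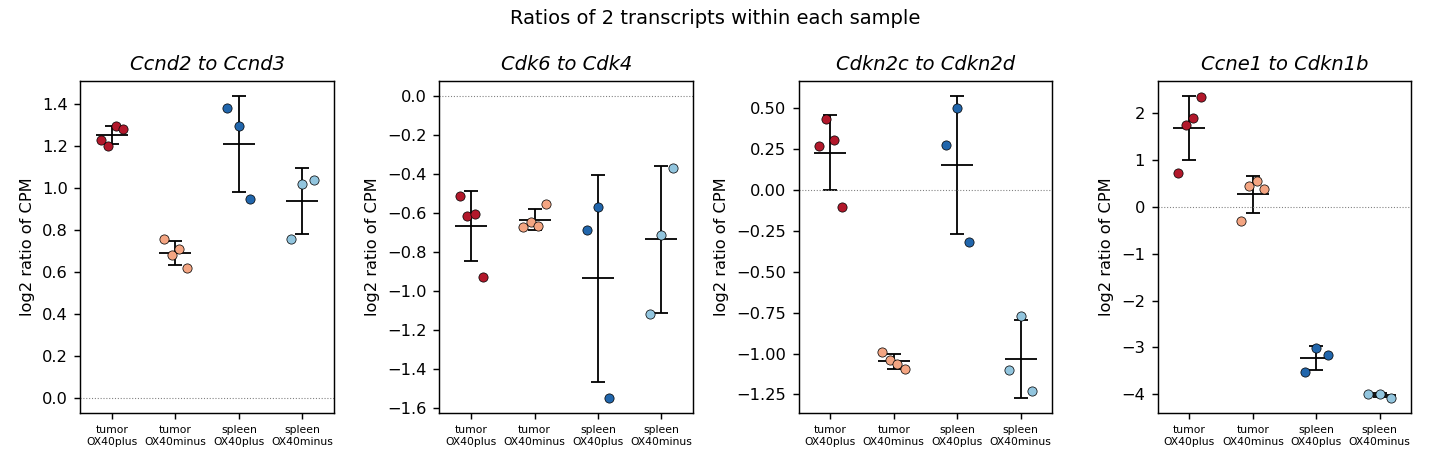
Log2 ratio of the CPM of 2 members within each sample, 1 point per mouse, with the mean and SD of each group; the dotted line marks equal CPM. The Cdkn2c to Cdkn2d ratio separates OX40plus from OX40minus samples at like levels in both tissues, and the Ccne1 to Cdkn1b ratio separates tumor from spleen samples.

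The targets of the D cyclin kinases were counted from lists of genes by function. The counts in this and the following paragraphs stand against 18.8% of all genes called higher and 20.2% called lower between the tumor gates, and 4.48% and 3.65% between the spleen gates. Of 13 RB and E2F genes tested, 9 were higher and 1 (Rbl2, p130) was lower in tumor OX40plus than in tumor OX40minus Tregs, and 3 were higher and none lower between the spleen gates. Tfdp1, the shared dimer partner of E2F proteins, averaged 314 CPM in tumor OX40plus and 143 CPM in tumor OX40minus Tregs, a log2 fold change of 1.13, and rose by 0.68 in spleen. The activators E2f1 and E2f3 rose by 0.95 and 1.10 in tumor and by 0.91 and 1.09 in spleen on the log2 scale. E2f2 did not pass the test in either tissue, at -0.05 in tumor and 0.04 in spleen. E2f4 rose by 0.55 in tumor but did not pass in spleen at 0.24. The other genes higher in tumor were E2f5, E2f6, E2f7, E2f8 and Rbl1. Rb1, the kinases' main substrate, named after its values were seen, was at 57.8 CPM in tumor OX40plus and 77.7 CPM in tumor OX40minus Tregs and did not pass the test. Of 11 genes of S phase entry, 10 were higher and none lower in the OX40plus gate of either tissue, with a median log2 fold change of 1.22 in tumor and 0.90 in spleen. Among them were Mcm5 and Mcm6 of the replicative helicase, at 1.22 and 0.97 in tumor and 0.99 and 0.79 in spleen, and Cdc6, which loads that helicase, at 1.38 and 1.24.

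Among 12 other cyclins, kinases and inhibitors tested, 9 were higher and 1 lower in tumor OX40plus Tregs, and 7 were higher and none lower in spleen OX40plus Tregs. Cdk1, the mitotic kinase, averaged 190 CPM in tumor OX40plus and 68.9 CPM in tumor OX40minus Tregs, with a log2 fold change of 1.45 there and 1.03 in spleen. Cyclin B1 (Ccnb1) rose by 1.55 in tumor and 0.86 in spleen on the log2 scale. The 1 lower gene was Ccnd1, the D cyclin that lymphocytes use little, at 4.99 CPM in tumor OX40plus and 10.5 CPM in tumor OX40minus Tregs, a log2 fold change of -1.15. Of 4 genes of the CDK-activating kinase and of CDK4 folding, Ccnh, Mnat1 and Hsp90ab1 were higher in tumor OX40plus Tregs, with log2 fold changes of 0.96, 0.49 and 0.73, and none of the 4 was called in spleens. All 8 genes of mitosis and proliferation, Top2a and Birc5 among them, were higher in tumor OX40plus than in tumor OX40minus Tregs, and 6 of 8 were higher in spleen OX40plus Tregs.

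Genes that act on the members' proteins or on their transcription were mixed. Of 9 genes of cyclin and p27 turnover, 4 were higher and 3 lower in tumor OX40plus Tregs. Skp2, which recognises p27 for degradation, averaged 25.6 CPM in tumor OX40plus and 9.36 CPM in tumor OX40minus Tregs, a log2 fold change of 1.52, while in spleens its log2 difference was -0.08 and did not pass the test. Cks2 rose by 1.34 in tumor and 0.97 in spleen, and Usp28, a deubiquitinase known to stabilise MYC, fell by 1.08 in tumor and 0.95 in spleen on the log2 scale. Of 12 genes that carry or restrain interleukin-2 and growth signals to D cyclins, 3 were higher (Myc, Il2ra, Rheb) in tumor OX40plus Tregs. In the same comparison 5 were lower (Stat5b, Il2rg, Pim2, Cish, Socs2), of which Cish and Socs2 are feedback inhibitors. In spleen OX40plus Tregs 2 (Socs2 and Stat5b) were lower. Myc averaged 209 CPM in tumor OX40plus and 117 CPM in tumor OX40minus Tregs, a log2 fold change of 0.82, and did not pass in spleens at 0.09. Stat5b, which relays interleukin-2 signals, was at 178 CPM in tumor OX40plus and 368 CPM in tumor OX40minus Tregs, a log2 fold change of -1.06.

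Of 12 genes of the FOXO, KLF and quiescence list, none was higher and 10 were lower in tumor OX40plus Tregs, and none was higher and 5 were lower in spleen OX40plus Tregs. The median log2 fold change was -0.64 in tumor, against -0.07 over all genes, and -0.30 in spleen, against 0.01. Klf2, which holds T cells in a resting, recirculating state, averaged 47.5 CPM in tumor OX40plus and 285 CPM in tumor OX40minus Tregs, a log2 fold change of -2.61, and fell by 1.12 in spleen. Txnip fell by 1.63 and the antiproliferative gene Btg1 by 1.15 on the log2 scale in tumor, and by 0.71 and 0.46 in spleen. Of 13 genes of p53 and its targets, 3 were higher (Trp53, Aen, Perp) and 4 lower (Sesn1, Bbc3, Trp53inp1, Ccng1) in tumor OX40plus Tregs, and 1 (Perp) was higher in spleen OX40plus Tregs. The tumor counts of this list lie near the shares over all genes.

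**Figure D5:**
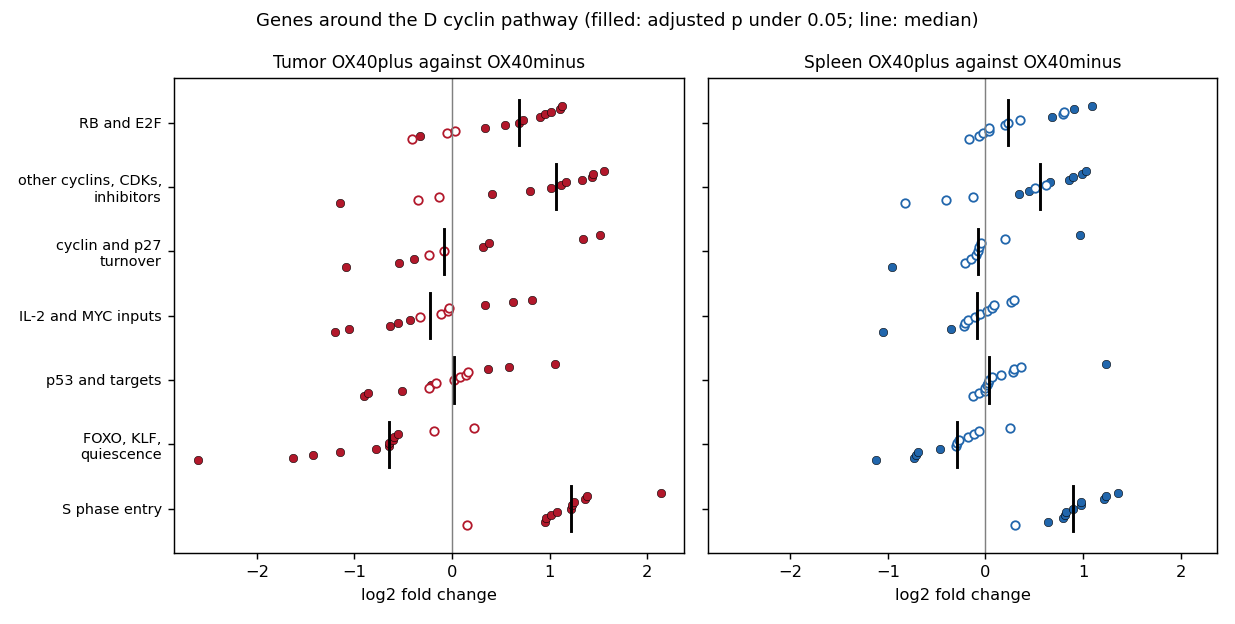
Log2 fold change between OX40plus and OX40minus Tregs of genes around the D cyclin pathway, in tumors (left) and spleens (right), 1 point per gene, filled where called, with a line at each list's median. S phase genes lie to the right and quiescence genes mostly to the left in both tissues, and the turnover, p53 and interleukin-2 lists straddle 0.

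The genes most like each member over the 14 samples differed between the members. Ccne1 was followed most closely by Nmral1, Tyms and Rfc3 (Pearson correlations 0.99, 0.989 and 0.987), of which Tyms and Rfc3 act in DNA synthesis. Cdk4 was followed by Nelfe, Ran and Psmc3ip (0.993, 0.987 and 0.987), Cdk6 by Gas2l3, Ipo9 and Atad2 (0.976, 0.973 and 0.969), and Cdkn2c by Lig1, Spag5 and Bcat1 (0.972, 0.971 and 0.97), where Lig1 is the DNA ligase of replication. Cdkn2d was most like Tmsb4x (0.957) and Ccnd2 most like Rap2a (0.977). Among the members themselves, Ccne1 and Cdk4 were the closest pair at 0.958, Cdkn2d was closest to Ccnd3 at 0.835, and Ccnd2 and Cdkn1b were the most opposed at -0.942.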

How the data were processed

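Per the submitters' processing notes, reads were handled with bcl2fastq 2.19, kallisto and limma on the mouse build mm10. The deposited values are log2 CPM of the form limma's voom gives, with 0.5 added to each count. This was read from the values: 451 to 1324 genes per library share its lowest value, and inverting the formula gave whole counts within 0.01 for 46.6% to 51.2% of values, against 0.893% to 1.29% with the library size raised by 10%. The sources used here do not give how transcripts were summarised, scaled and filtered, or whether strand was used.

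The 28 libraries were averaged to 14 samples (2 libraries per mouse and gate), since library pairs differed by about sampling noise. Genes with at least 0.446 CPM in 3 samples and 15 counts in total were tested in a single limma fit with a mean-variance trend and no block (limma 3.58.1, R 4.3.3), with Benjamini-Hochberg adjustment over 12308 genes and a call under 0.05. The labels give both gates of a tissue the same mouse numbers, which pairs them by animal, yet deviations of the same mouse correlated only between -0.162 and 0.127. The fit was tested on simulated data with 200 changed genes. Gene positions are from GENCODE vM21 (GRCm38) and lengths are merged exons.

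The members and gene lists were chosen with earlier results of these data known. Named genes are the members, up to 4 called genes per list and OX40 comparison with the smallest adjusted p, the 3 genes most correlated with each member, and counts of 5 or fewer. Alternatives were other scalings, filters and offsets, voom weights, the groups compared alone, a mouse block and leaving out each sample.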

Additional observations from a re-analysis of the deposited data

Results flagged for a closer look

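Among 18 groups of 4 samples (9 members in the tumor OX40plus and tumor OX40minus groups), 1 held a sample that stood apart from the rest. Cdk4 in tumor OX40minus mouse 2 was at 197 CPM, against 181 to 182 CPM in the other 3 mice, and its gap to the next sample was 0.923 of the range of the group on the log2 scale. Chance alone gives about 1 such group in 20. The sample still lay below every tumor OX40plus sample, of which the lowest was at 253 CPM.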

How the results depend on the processing

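The number of called members was the same or within 1.5 times under most alternatives. Between the tumor gates it was 6 to 8, instead of 8, when a sample was left out. Cdkn1b and Cdkn2a also lost their calls there when only the tumor groups were fitted. Between tumor OX40minus and spleen OX40plus Tregs the number of called members was 6 to 8, instead of 7, when a sample was left out. Between the spleen gates it was 4 instead of 2 with libraries scaled by size alone, and 1 to 4 when a sample was left out. For the difference between the OX40 effects of the tissues it was 1 instead of 0 by size alone, and 0 to 1 when a sample was left out. Over all genes, fitting the spleen groups alone called 1859 genes between the gates instead of 1000, and leaving out a sample gave 647 to 1192; for the difference between tissues it gave 778 to 1637 instead of 1371. With mouse as a block, the paired fit called 8 members between the tumor gates, 2 between the spleen gates and 0 for the difference between tissues, the counts without the block, and it changed no member's call in any comparison. Between tissues the block joined tumor and spleen samples of the same mouse number. Whether these are the same animal was not tested, and their deviations correlated only between -0.0539 and 0.0408. Small differences that were not called changed sign: Cdkn2a between tumor and spleen OX40plus Tregs was -0.094 by size alone, -0.025 with voom weights and -0.23 to 0.44 with a sample left out. For Cdkn2d the difference between the OX40 effects was -0.067 by size alone, -0.0013 on log2(CPM + 1), -0.00040 with voom weights and -0.083 to 0.16 with a sample left out, and for Ccnd2 it was -0.15 to 0.0071 with a sample left out. The cause of these shifts was not tested. At a minimum of 1 CPM in 4 samples Cdkn2a was not tested. At 2 to 28 counts per sample, Cdkn2a is limited by depth.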
